A study of Mus musculus with 66 samples.

Results

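The genes described here are the potassium channel genes of the mouse, taken as every protein-coding gene whose symbol begins with Kcn followed by letters and a number. There were 93 of them among the 45706 gene identifiers in the files, of which 21127 were protein-coding genes. By the role of their products, 40 encode voltage-gated alpha subunits, 15 inward rectifiers, 14 two-pore channels, 8 calcium- or sodium-activated channels and 16 auxiliary subunits.

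RNA was sequenced from 66 libraries in 20 groups of 3 or 4 mice, all made from polyadenylated RNA of adult tissue. Of these, 48 came from brain hemisections and spinal cords and 18 from dissected cortex, hippocampus and cerebellum. The study asked how 5 spontaneous alleles of Rorb, a nuclear receptor gene expressed in the central nervous system, change gene expression. It compared homozygous mutants with wild-type mice and also covered several tissues and both genetic backgrounds.

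The C57BL/6J controls, wild type at Rorb and 8.0 weeks old, served the Rorb h1/h1, h2/h2, h3/h3 and h4/h4 groups. The Rorb h1/h1 mice, on C57BL/6J and 8.0 weeks old, carry a duplication that takes in the first exon of the Rorb1 transcript. The Rorb h2/h2 mice, 7.9 to 9.4 weeks old, and the Rorb h3/h3 mice, 8.0 to 9.6 weeks old, arose on the albino B6(Cg)-Tyr c-2J/J background, and their causal base changes were not identified. The Rorb h4/h4 mice, 8.4 to 8.6 weeks old, arose on B6.129S7-Il1r1 tm1/mx/J and carry a premature stop codon. The DBA/1J controls, 8.4 to 8.9 weeks old for brain and cord, served the Rorb h5/h5 mice of the same strain, 8.4 to 8.7 weeks old, which lack the start codon of Rorb1. The dissected regions came from DBA/1J and Rorb h5/h5 mice only, all 7.0 weeks old. Each allele was thus held as 1 strain, and h2, h3 and h4 were compared with controls of a related but not identical background.

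Potassium channels let potassium flow through the cell membrane and so set the resting potential of neurons and glia, shape the action potential and limit how fast a neuron can fire. Voltage-gated alpha subunits open on depolarization, inward rectifiers and two-pore channels hold the resting potential, and calcium- or sodium-activated channels follow activity inside the cell. Auxiliary subunits change how many alpha subunits reach the membrane and how they open, and glial inward rectifiers take up the potassium that active neurons release.

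Total expected counts, the fragments that RSEM assigned to genes, ran from 32889755 to 59120536 per library. Levels are given as TPM, each gene's share of all transcripts on a fixed scale, corrected for transcript length. Tissue labels matched the marker lists. In DBA/1J mice 8 cerebellar granule cell markers summed to 3712 to 3790 TPM in cerebellum and to at most 158.8 TPM in cortex and hippocampus, and 8 markers of spinal cord and brainstem summed to 456.4 to 477.8 TPM in cord and at most 38.79 TPM in the other tissues. Some libraries stood apart. The granule cell markers of DBA/1J brain replicate 1 summed to 188 TPM, against 622.4 and 632.7 TPM in the other DBA/1J brains. In the spinal cord of Rorb h5/h5 replicate 3 the Schwann cell markers summed to 1249 TPM, against 170.8 and 246.2 TPM in the other cords of that group. Choroid plexus markers, dominated by Ttr, ran from 22.94 to 884.8 TPM in DBA/1J cortex, from 1507 to 6257 TPM in hippocampus and from 2580 to 3736 TPM in cerebellum. The 3 dissected libraries of Rorb h5/h5 replicate 3, labelled female, held 57.8 to 86.2 CPM of the Y-linked gene Ddx3y. They held at most 0.32 CPM of Xist, a gene expressed in females. The label was kept, also in the fits with sex as a covariate. Mean Rorb levels in brain were 11.9 TPM in C57BL/6J, 7.57 in h1, 6.19 in h2, 11.4 in h3 and 3.07 in h4, and 12.2 TPM in DBA/1J against 16.7 in h5. The h3 libraries overlapped their controls and the h5 libraries lay above theirs (adjusted p = 0.846 and 0.392, edgeR).

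Most potassium channel genes were present. In at least 1 of the 20 groups 80 of the 93 reached a mean of 1 TPM, and 55 did so in every group. The 4 members under 0.1 TPM in all groups were Kcna7, Kcnj1, Kcnk18 and Kcnmb3. Among wild-type tissues the number at 1 TPM or more was 76 in DBA/1J brain, 74 in cortex, 74 in hippocampus, 70 in spinal cord and 60 in cerebellum. The low-count filter of edgeR left 74 members in all 20 comparisons and removed 9 from every one, among them Kcna10, Kcne1, Kcne3, Kcnj15 and Kcnk16. The plot of mean levels by control group shows members that reached 1 TPM.

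**Figure D1:**
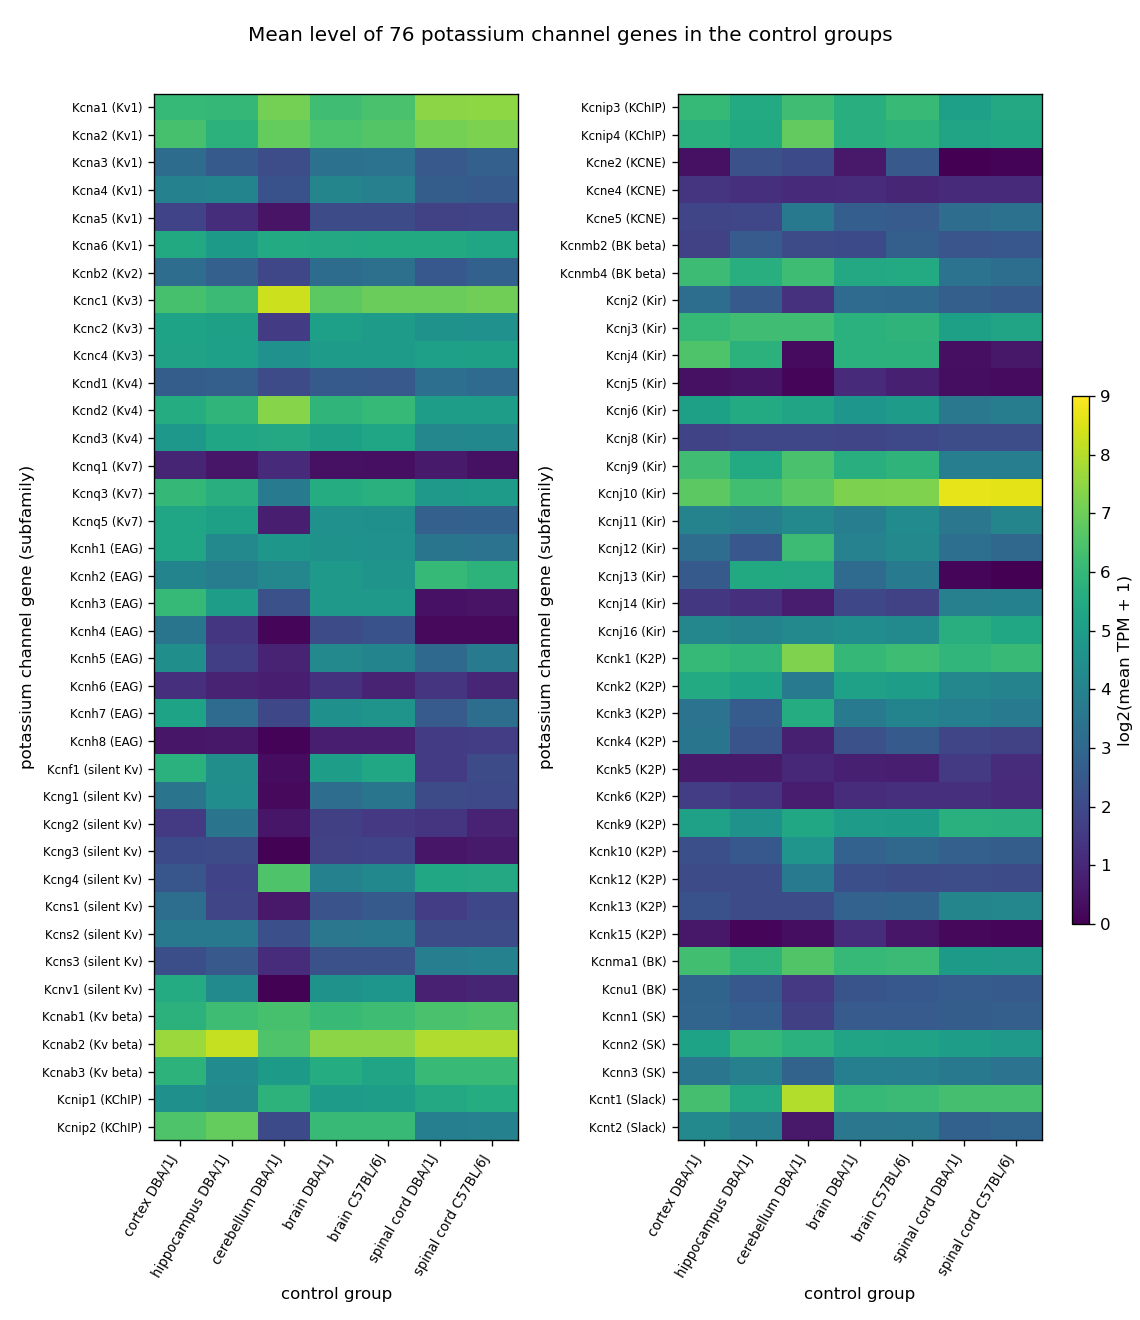
Colour gives log2(mean TPM + 1) of 76 of the potassium channel genes that reached 1 TPM (rows, by subfamily) in the 7 control groups (columns, n = 3 mice each). Kcnc1 is brightest in cerebellum and Kcnj10 in spinal cord, while Kcnv1, Kcnj4 and Kcnf1 are darkest in cerebellum.

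The abundant members differed by tissue. In cortex they included Kcnab2 at 201 ± 12.4 TPM (SD, n = 3), Kcnj10 at 106 ± 20.8 TPM and the Kv4 partner Kcnip2 at 91.8 ± 15.97 TPM. Kcnab2 is a beta subunit of the Kv1 channels, and Kcnj10 is the main inward rectifier of astrocytes and oligodendrocytes. In hippocampus Kcnab2 was at 292 ± 11.1 TPM, Kcnip2 at 115 ± 1.9 TPM and Kcnj10 at 75.8 ± 5.1 TPM. Cerebellum had another order, with Kcnc1 at 316 ± 3.5 TPM, Kcnt1 at 250.6 ± 21.2 TPM and Kcnd2 at 165 ± 4.1 TPM. Kcnc1 encodes a fast Kv3 channel that lets neurons fire at high rates, Kcnt1 a sodium-activated channel and Kcnd2 a Kv4 channel. In spinal cord Kcnj10 came first, at 396 ± 17.6 TPM in C57BL/6J and 401 ± 22.7 TPM in DBA/1J, followed in C57BL/6J by Kcnab2 at 243 TPM.

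Summed over all 93 members, the level was 3193 ± 70 TPM in cerebellum, 2607 ± 247 TPM in cortex and 2324 ± 42.2 TPM in hippocampus (SD, n = 3 each). The brain hemisections summed to 2531 ± 171 TPM in C57BL/6J and 2345 ± 121 TPM in DBA/1J, and the cords to 2631 ± 96.2 and 2539 ± 110 TPM. Voltage-gated alpha subunits made up the largest share everywhere, from 40.4% ± 1.2 in hippocampus to 46.9% ± 0.45 in cerebellum. The other classes varied more. Auxiliary subunits made up 28.7% ± 0.88 in hippocampus and 16.9% ± 0.38 in cerebellum, and calcium- or sodium-activated channels 12.8% ± 0.35 in cerebellum and 6.18% ± 0.16 in C57BL/6J cord. Inward rectifiers took 21.8% ± 0.23 in DBA/1J cord and 14.2% ± 0.14 in cerebellum.

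Within the classes the subfamilies changed places. Channels of the EAG subfamily supplied 7.26% of the summed level in cortex and 1.61% in cerebellum. The sodium-activated subfamily went from 2.38% in hippocampus to 7.86% in cerebellum. These shares are descriptions of mean levels and were not tested.

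**Figure D2:**
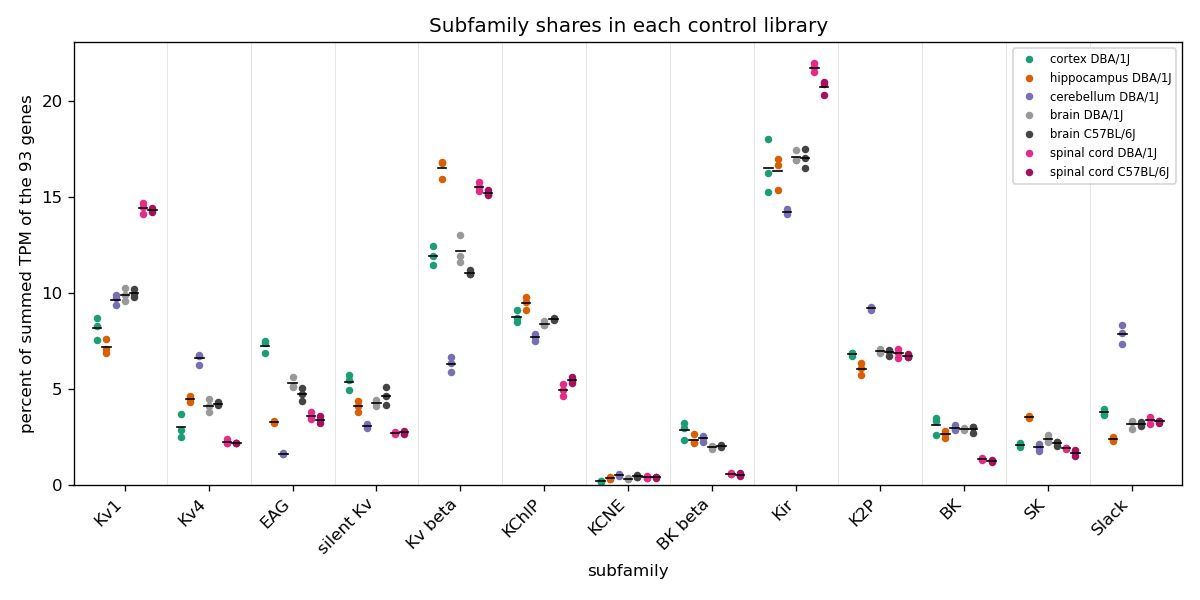
Share of the summed TPM of the 93 genes (percent, vertical axis from 0) taken by each of 13 subfamilies (horizontal axis) in every control library (points, 3 per group) with the group mean (line). The hippocampal points lie highest for Kv beta, with a mean of 16.5%, and the cerebellar ones for Slack, the sodium-activated subfamily, with a mean of 7.86%.

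Few members were level across the tissues of DBA/1J mice. Of 78 members with at least 1 TPM in cortex, hippocampus, cerebellum or spinal cord, 9 differed by under 2-fold between their highest and lowest mean, with values under 0.1 TPM set to 0.1 TPM. By the same measure 23 differed by over 10-fold and 7 by over 100-fold. Cortex was the highest tissue for 25 members, cerebellum for 22, spinal cord for 17 and hippocampus for 14. Cerebellum was the lowest for 35.

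Cerebellum against cortex asks how the channel set of a tissue rich in granule and Purkinje cells differs from that of the neocortex. Of 81 members tested 62 were called at an adjusted p under 0.05 by edgeR's quasi-likelihood test with Benjamini-Hochberg adjustment over all genes, against 58.1% of all 17329 genes tested. The members called were 76.5%. By direction 20 were higher in cerebellum, beside 28.6% of all genes, and 42 lower, beside 29.5%. The median log2 fold change was -0.78 over the members and 0.01 over all genes. Both tissues came from the same 3 mice, but the main fit had no term for the mouse. Its p-values therefore treat the libraries as separate samples and do not use the pairing. In bulk tissue, fewer cells of a type and less RNA per cell cannot be told apart, here and in every comparison that follows.

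The Kv3 gene Kcnc1 measured 84.8, 87.4 and 77.1 TPM in the 3 cortex libraries and 319, 316 and 312 TPM in cerebellum. Its log2 fold change was 1.54 ± 0.07 (SE; adjusted p = 1.22e-07, edgeR). It was thus several-fold higher in every cerebellar library, with no overlap. Its relative Kcnc2, a Kv3 gene of cortical fast-spiking interneurons, went the other way, from 35.8, 37.8 and 34.3 TPM to 2.21, 2.01 and 1.98 TPM (log2 fold change -4.37 ± 0.09). Kcnc4 was also lower, by a smaller step, at 35.3, 37.0 and 33.8 TPM in cortex and 24.2, 23.0 and 19.8 TPM in cerebellum.

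The Kv4 channels carry the fast A current of dendrites. Kcnd2 was higher in cerebellum, at 168, 160 and 166 TPM against 31.9, 49.5 and 57.3 TPM in cortex (1.60 ± 0.16), and Kcnd3 rose by 0.39 on the log2 scale (adjusted p = 0.0302). Their KChIP partners split. Kcnip1 rose by 1.17 and Kcnip4 by 0.87, whereas Kcnip2 measured 73.7, 97.9 and 104 TPM in cortex and 3.45, 3.47 and 2.14 TPM in cerebellum (-5.33 ± 0.17). Of the 4 KChIP genes, 2 were higher, 1 was lower and Kcnip3 was not called.

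Kv1 channels sit on axons and near the synapse. In cerebellum Kcna1, whose human counterpart is the episodic ataxia gene, reached 139, 139 and 141 TPM against 49.6, 70.7 and 70.5 TPM in cortex (0.89 ± 0.11). Kcna2 differed less, by 0.27 ± 0.09, and the groups did not overlap, at 113 to 124 TPM against 71.6 to 91.3 TPM. Kcna3, Kcna4 and Kcna5 were lower in cerebellum, by -1.51, -2.68 and -2.94 on the log2 scale. Kcna6 was not called, at 43.9 to 44.2 TPM in cerebellum and 41.4 to 45.9 TPM in cortex.

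Several genes of the Kv7 and EAG subfamilies were lower in cerebellum. The Kv2 gene Kcnb2, a slow delayed rectifier, fell from 6.46, 8.48 and 9.74 TPM to 3.42, 2.73 and 2.29 TPM (-1.78 ± 0.16). Among the Kv7 genes, which carry the M current that restrains repeated firing, Kcnq5 fell from 32.8, 42.1 and 42.3 TPM to 0.62, 0.78 and 0.67 TPM (-6.25 ± 0.17), and Kcnq3 had a log2 fold change of -2.61 ± 0.14. Kcnq1 was not called. Among the 8 genes of the EAG subfamily 7 were lower. Kcnh4 went from 10, 11.02 and 10.1 TPM to 0.12, 0.15 and 0.03 TPM, and Kcnh3 from 64.8, 69.6 and 60.4 TPM to 3.58, 4.64 and 2.86 TPM. The exception was Kcnh2, the ERG channel gene, at 12.4, 15.3 and 19.6 TPM in cortex and 16.9 to 17.0 TPM in cerebellum.

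The silent Kv genes encode subunits that form no channel alone and modify Kv2 channels. All 10 were tested and called, 8 lower and 2 higher in cerebellum. Kcnv1 had the most negative value of all members, at 36.8, 54.2 and 46.4 TPM in cortex and 0.04, 0.06 and 0.04 TPM in cerebellum (-10.11 ± 0.21). Kcnf1 measured 41.7, 54.1 and 60.8 TPM against 0.18, 0.28 and 0.24 TPM. Kcng4 went in the opposite direction, from 4.88, 4.80 and 3.07 TPM in cortex to 87.3, 94.1 and 92.0 TPM in cerebellum (4.17 ± 0.17). The other silent gene that was higher, Kcnv2, stayed at 0.17 to 0.33 TPM in cerebellum.

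Of 13 inward rectifiers tested 2 were higher, 4 lower and 7 not called. Kcnj4, a strong rectifier of forebrain neurons, fell from 76.5, 93.8 and 105 TPM in cortex to 0.12, 0.20 and 0.27 TPM in cerebellum. Kcnj12 rose from 7.05, 9.27 and 8.79 TPM to 69.2, 75.6 and 68.4 TPM (2.85 ± 0.09). The G protein-gated genes Kcnj3, Kcnj6 and Kcnj9 were not called, with log2 fold changes of -0.10, -0.05 and -0.13. The glial genes Kcnj10 and Kcnj16 were not called either, at 85.3 to 127 TPM and 101 to 106 TPM for Kcnj10 in cortex and cerebellum.

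The two-pore channels carry leak current. Of 10 tested 4 were higher in cerebellum. These were Kcnk10 (2.55 ± 0.10), the TASK gene Kcnk3 (1.95 ± 0.08), Kcnk12 (1.60 ± 0.28) and Kcnk1 (0.99 ± 0.08). Kcnk1 measured 142, 151 and 159 TPM in cerebellum and 62.5, 66.8 and 63.9 TPM in cortex. Another 4 were lower, among them the mechanosensitive genes Kcnk2 at -2.12 and Kcnk4 at -4.06. Kcnk9, a second TASK gene, had a log2 fold change of 0.03 ± 0.10. Among the activated channels the sodium-activated pair diverged. Kcnt1 rose from 77.6, 82.0 and 81.2 TPM to 251.3, 272 and 229 TPM (1.34 ± 0.08), and Kcnt2 fell from 14.4, 19.9 and 18.8 TPM to 0.49, 0.55 and 0.58 TPM (-5.48 ± 0.17). The BK channel gene Kcnma1 was not called, and of the SK genes Kcnn2 was higher by 0.31 while Kcnn1 and Kcnn3 were lower.

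**Figure D3:**
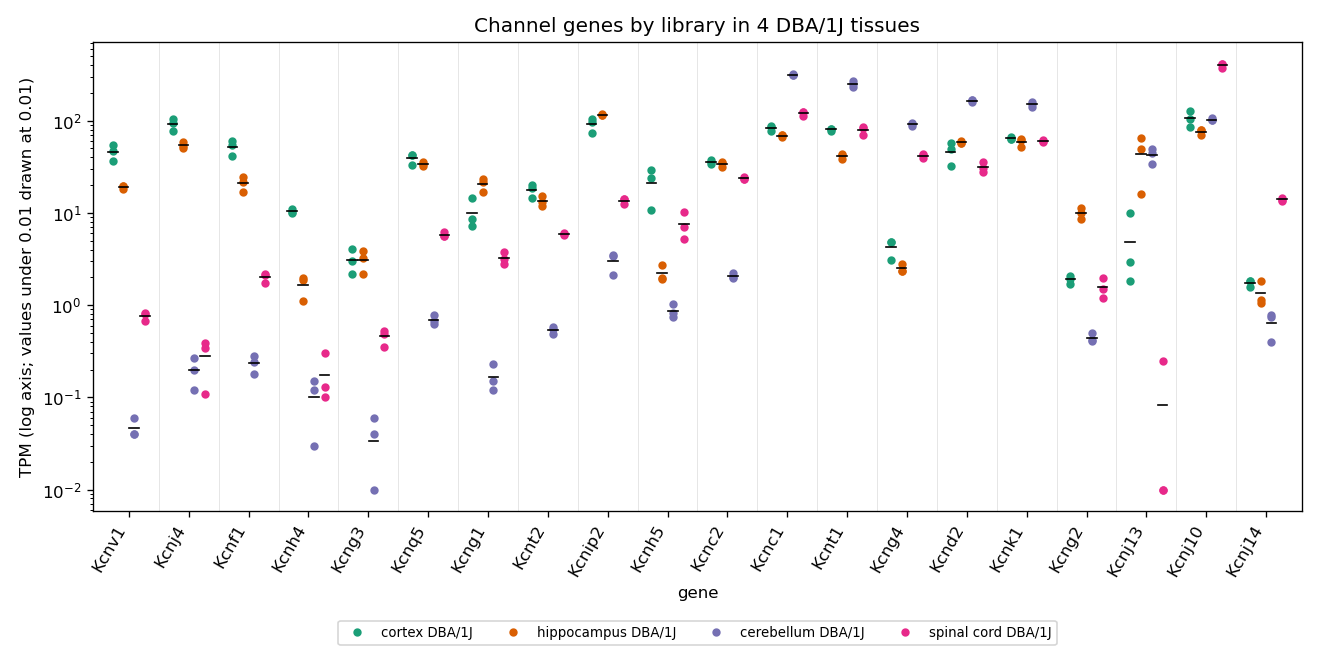
TPM on a log axis of potassium channel genes that differ between tissues, in each of the 3 DBA/1J libraries of cortex, hippocampus, cerebellum and spinal cord (points) with the group mean (line), and with values under 0.01 TPM drawn at 0.01. Cerebellar points lie far under the cortical ones for Kcnv1, Kcnj4 and Kcnf1 and above them for Kcnc1 and Kcng4.

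Hippocampus and cortex, both forebrain, were closer to each other. Of 80 members tested 42 were called, 52.5%, against 20.6% of all 17166 genes. Of these 11 were higher in hippocampus, beside 9.78% of all genes, and 31 lower, beside 10.8%. The median log2 fold change of the members was -0.29. Leaving out hippocampus replicate 3 brought the count to 27, and leaving out any other library gave at most 46.

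In the EAG subfamily 5 of 8 genes were lower in hippocampus and none was called higher. Kcnh5 measured 1.98, 2.71 and 1.92 TPM in hippocampus and 10.6, 24.2 and 28.9 TPM in cortex (-3.31 ± 0.33), and Kcnh7 measured 6.98, 8.40 and 8.14 TPM against 28.1, 41.3 and 40.7 TPM (-2.30 ± 0.14). Kcnab3, a Kv beta gene, was lower at 18.4, 18.5 and 20.4 TPM against 55.0, 62.4 and 47.5 TPM (-1.56 ± 0.10). The silent gene Kcns1 and the two-pore gene Kcnk4 were lower by -1.72 and -1.39 on the log2 scale. In the other direction Kcng2, a silent subunit gene, rose from 1.92, 1.70 and 2.09 TPM to 11.3, 8.61 and 9.94 TPM (2.42 ± 0.12). The SK gene Kcnn2 rose from 34.3, 38.1 and 35.2 TPM to 64.4, 57.9 and 64.2 TPM, and Kcnab2 rose by 0.44 ± 0.09.

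For Kcnj13 and Kcne2 the levels are given beside the choroid plexus markers. Kcnj13, an inward rectifier of epithelia, measured 48.8, 16.2 and 65.3 TPM in hippocampus, 49.2, 44.9 and 33.7 TPM in cerebellum and 2.93, 9.89 and 1.83 TPM in cortex. Kcne2, an auxiliary subunit of epithelial channels, measured 3.59, 1.89 and 5.64 TPM in hippocampus and 0.11, 0.71 and 0.18 TPM in cortex. The choroid plexus marker sum of the same libraries was 4798, 1507 and 6257 TPM in hippocampus, 3553, 3736 and 2580 TPM in cerebellum and 73.33, 884.8 and 22.94 TPM in cortex. The library order of Kcnj13 was that of the sum in hippocampus and cortex but not in cerebellum, and that of Kcne2 in hippocampus but not in cortex. The part of these markers in the higher Kcnj13 and Kcne2 levels of hippocampus (3.13 ± 0.65 and 3.46 ± 0.63 on the log2 scale) was not tested. In spinal cord, where the marker sum was at most 6.88 TPM in both wild types, Kcnj13 was listed at 0, 0 and 0.04 TPM in C57BL/6J and 0, 0 and 0.25 TPM in DBA/1J.

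Cerebellum against hippocampus gave the most calls of the 3 region pairs, 67 of 81 members (82.7%) against 64% of 17332 genes. By direction 26 were higher in cerebellum, beside 32.2% of all genes, and 41 lower, beside 31.8%. Kcng4 had the largest positive value, at 87.3 to 94.1 TPM in cerebellum and 2.34 to 2.79 TPM in hippocampus (5.03 on the log2 scale), and Kcnj12 followed at 3.82. Kcng1, silent in Kv terms, was 16.7, 23.1 and 21.8 TPM in hippocampus and 0.15, 0.23 and 0.12 TPM in cerebellum. In the Rorb h5/h5 mice, which were not used for these calls, the mean TPM differed in the same direction for 62 of the 62 members called for cerebellum against cortex, 42 of 42 for hippocampus against cortex and 67 of 67 for cerebellum against hippocampus. Their libraries did not overlap for 57, 37 and 65 of these members (91.9%, 88.1% and 97%), beside 85.8%, 81.6% and 84.6% of all genes called in the same comparisons, and the direction held for 97.2%, 98.8% and 97.7% of those genes.

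The transcript length that RSEM averaged over isoforms also differed between regions for a few members. For Kcna4 it was 2.99 kb in cerebellum and 4.27 kb in cortex, and for Kcnab2 2.90 and 3.60 kb. For cerebellum against cortex the log2 ratio of TPM was 0.24 above the log2 fold change of counts in the median over 13996 genes with at least 1 TPM in both tissues, and by the same 0.24 in the 30 members whose length differed by at most 1%. The scales had opposite signs in 12 members, all of them among members not called. Kcnj11, of unchanged length, was at 0.23 from TPM and 0 from counts, and Kcnma1, 4.08 kb in cerebellum and 4.57 kb in cortex, at 0.29 and -0.12. The same shift was 0.16 for cerebellum against hippocampus and at most 0.06 in size in the other comparisons of tissues.

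Spinal cord against brain hemisection was tested in both wild types. In C57BL/6J 70 of 81 members were called (86.4%), against 56.9% of 17647 genes, with 23 higher in cord, beside 28.3% of all genes, and 47 lower, beside 28.5%. In DBA/1J 61 of 80 were called (76.2%), against 50.8% of 17276 genes, with 20 higher, beside 25.3%, and 41 lower, beside 25.6%. The median over the members was -0.39 and -0.37 on the log2 scale. Of the 80 members tested in both backgrounds 61 were called in both (76.2%), beside 44.6% of 16916 genes. The direction was the same for 61 of these 61 and for 99.8% of all genes called in both. Pearson's r between the log2 fold changes was 0.97 across the 80 members and 0.935 across all genes, which are not independent replicates. Brain and cord of each background came from the same mice, and the main fit did not use this pairing.

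**Figure D4:**
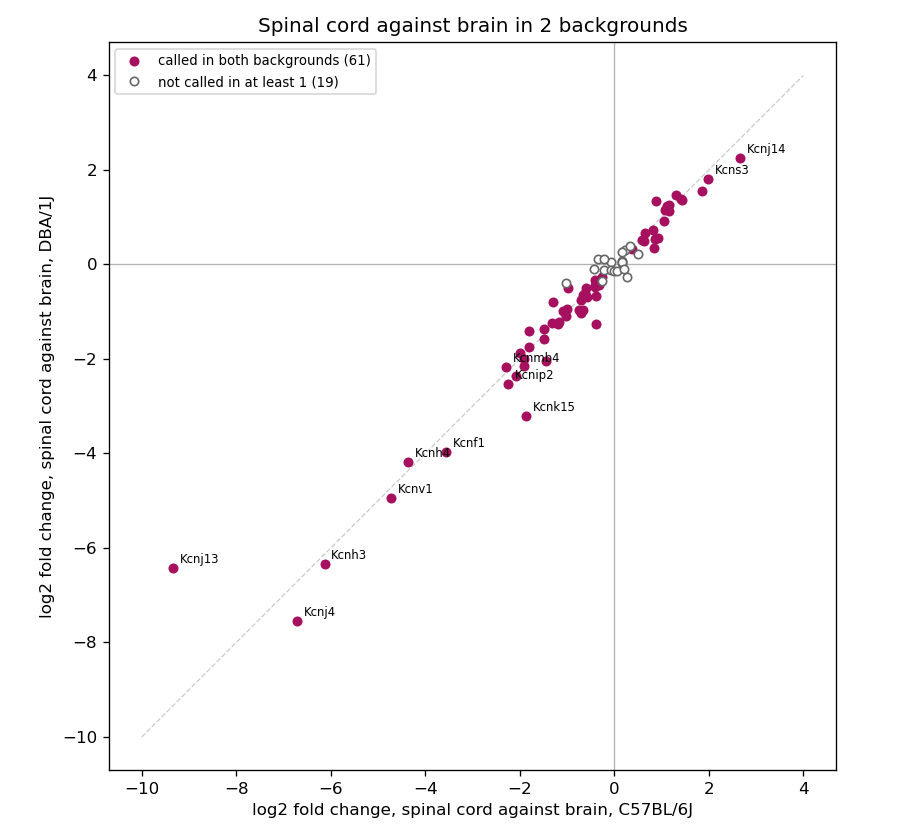
Log2 fold change of spinal cord over brain in C57BL/6J (horizontal axis) and DBA/1J (vertical axis) for the 80 genes tested in both, filled for the 61 called in both and open for the other 19. The points run along the dashed line of equal change, from Kcnj4 and Kcnh3 far below 0 to Kcnj14 at 2.66 and 2.25; Kcnj13 was at or near 0 TPM in cord, so its fitted value is no measure of size.

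The members higher in cord included glial, axonal and motor neuron genes. Kcnj10 measured 390, 382 and 416 TPM in C57BL/6J cord and 162, 157 and 135 TPM in brain (1.41 ± 0.07), and its partner Kcnj16 was higher by 1.12 ± 0.06. Astrocyte markers summed to 3681 to 3866 TPM in cord and 2279 to 2473 TPM in brain, and oligodendrocyte markers to 21530 to 23400 TPM and 6207 to 7097 TPM. Their part in the Kcnj10 difference was not tested. Kcna1 and Kcna2, the channels next to the nodes of Ranvier in myelinated axons, measured 175, 172 and 182 TPM and 146, 143 and 154 TPM in cord, against 82.3, 88.3 and 85.2 TPM and 91.5, 102 and 96.0 TPM in brain. All 3 Kv beta genes, whose products join Kv1 channels, were called higher in cord in both backgrounds, with Kcnab3 at 66.0, 62.5 and 69.0 TPM against 34.2, 41.0 and 35.8 TPM.

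The largest positive value belonged to Kcnj14, a rectifier found in motor neurons, at 14.3, 13.4 and 16.2 TPM in cord and 2.61, 2.49 and 2.03 TPM in brain (2.66 ± 0.11). Kcns3, Kcnh8 and the two-pore gene Kcnk13 had log2 fold changes of 1.98, 1.85 and 1.43 in C57BL/6J and 1.81, 1.56 and 1.36 in DBA/1J. Kcnh2 was 50.9, 58.97 and 57.1 TPM in cord and 22.7, 25.3 and 23.9 TPM in brain. The BK channel pair was lower in cord. Kcnma1 measured 26.3, 27.3 and 28.6 TPM against 60.2, 76.4 and 71.2 TPM, and its neuronal beta subunit gene Kcnmb4 7.91, 9.82 and 7.97 TPM against 43.2, 46.0 and 45.2 TPM (-2.29 ± 0.09).

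Kcnj4 and Kcnh3 were among the members lowest in cord relative to brain. Kcnj4 was 1.07, 0.29 and 0.09 TPM in C57BL/6J cord and 45.6, 58.3 and 59.8 TPM in brain, and Kcnh3 was 0.52, 0.31 and 0.31 TPM against 23.6, 29.3 and 29.7 TPM (-6.13 ± 0.14). Kcnv1, Kcnh4 and Kcnf1 had log2 fold changes of -4.73, -4.36 and -3.56. Of the G protein-gated rectifiers, the log2 fold change was -1.996 for Kcnj9, -1.20 for Kcnj6 and -0.58 for Kcnj3, and each of them was called in both backgrounds. For Kcnc1 the scale mattered. Its TPM was 0.11 higher on the log2 scale in C57BL/6J cord and its counts fell by 0.22, with an average transcript of 3.54 kb in cord and 4.44 kb in brain. In each of the 4 B6-background mutants the mean TPM kept the direction of 68 or 69 of the 70 members called in C57BL/6J, and in Rorb h5/h5 mice of 61 of 61. Over all genes called in the wild types the direction was kept by 97.4% in h1, 98.6% in h2, 98.5% in h3, 98.4% in h4 and 98.2% in h5.

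Channel partners that are not pore genes of the set, listed with earlier results known, were tested beside them. Of 15 listed, 4 were higher and 5 lower of 13 tested for cerebellum against cortex, beside 28.6% and 29.5% of all genes. For cord against brain in C57BL/6J 5 were higher and 6 lower of 14, beside 28.3% and 28.5% of all genes. Hcn2, a pacemaker channel gene, averaged 176 TPM in cord and 83.8 TPM in brain. Dpp6, a Kv4 partner, was higher in cerebellum by 0.71 on the log2 scale and Dpp10, its relative, lower in C57BL/6J cord by -0.83.

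The comparison of DBA/1J with C57BL/6J mice asks what differs between the wild types of both backgrounds. In brain 9 of 81 members were called (11.1%), against 11.2% of 17368 genes, with 5 higher in DBA/1J, beside 4.04% of all genes, and 4 lower, beside 7.2%. The share of members was thus close to the background. The count was 5 without DBA/1J replicate 1, the library low in granule cell markers, 4 without C57BL/6J replicate 2, and 5 without C57BL/6J replicate 3. The mice of the compared strains also differed in their mix of sexes, and with sex in the fit the count was 7. All DBA/1J mice were older than the C57BL/6J mice, so strain and age cannot be told apart.

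Kcne2 had the largest difference, at 0.29, 0.52 and 0.80 TPM in DBA/1J brain and 4.21, 6.00 and 3.98 TPM in C57BL/6J brain (-3.08 ± 0.31, adjusted p = 0.000188, edgeR). Across all 18 brain libraries of the C57BL/6J, h1, h2, h3 and h4 groups Kcne2 ran from 1.58 to 6.09 TPM, and in the 6 of DBA/1J and h5 from 0.26 to 1.5 TPM, with no overlap. Choroid plexus markers summed to 401.3 to 853.7 TPM in DBA/1J brain and 609.1 to 966.3 TPM in C57BL/6J brain. Kcnk15, a two-pore gene, was higher in DBA/1J, at 0.98, 1.34 and 1.43 TPM against 0.49, 0.52 and 0.39 TPM. Kcnab3 rose by 0.36 and the KChIP gene Kcnip3 fell by 0.36 on the log2 scale. Kcnh6 (0.82), Kcnj5 (0.70), Kcnj11 (-0.46), Kcna4 (0.25) and Kcnj9 (-0.24) were also called, the TPM of the last pair overlapped between strains, and each of these 5 lost its call in at least 2 of 11 alternative analyses. A low level of Kcng4 in DBA/1J replicate 1, 8.16 TPM against 17.5 to 18.4 TPM in the other DBA/1J brains, came with its low granule cell markers.

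In spinal cord 19 of 78 members were called (24.4%), against 21.3% of 17318 genes, with 5 higher in DBA/1J, beside 8.55% of all genes, and 14 lower, beside 12.7%. Without C57BL/6J replicate 1 the count was 11. Of 8 microglia markers 4 were called higher in DBA/1J cord and 0 lower, and of 6 oligodendrocyte precursor markers 4 lower and 0 higher. Of 8 astrocyte markers 1 was higher and 1 lower, and of 8 neuron markers 0 were called. The part of these cell types in the member values was not tested. Kcnh7 was 3.86, 6.04 and 5.00 TPM in DBA/1J cord and 8.35, 8.71 and 8.20 TPM in C57BL/6J cord (-0.80 ± 0.12), and Kcnf1 was 2.10, 1.72 and 2.18 TPM against 3.86, 3.35 and 2.65 TPM (-0.73 ± 0.14). Kcnip3 measured 33.7, 28.9 and 35.0 TPM against 41.3, 42.1 and 41.8 TPM. Kcnj16, the Kcnj10 partner, was higher, at 51.3, 46.5 and 52.7 TPM against 41.9, 36.9 and 40.5 TPM (0.33 ± 0.05). Kcnj10 itself had a log2 fold change of 0.01 ± 0.05. The groups of Kcnh7, Kcnf1, Kcnip3 and Kcnj16 did not overlap. The difference between brain and cord in the strain effect was called for 0 of 81 members by edgeR, against 0.321% of all genes, with 10 members (12.3%) at an unadjusted p under 0.05, beside 9.8% of all genes, and 1 member called by DESeq2 among 220 genes.

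In the comparisons of Rorb alleles edgeR called between 0 and 3 members each. The 4 mutants on B6 backgrounds share the same 3 C57BL/6J mice as controls, so their values are given side by side and are not independent of each other. In brain, edgeR called 0 members in every comparison of a mutant with its control. The genes called were 0% of all tested in h1, 0.136% in h2, 0.164% in h3, 0.703% in h4 and 0% in h5. At an unadjusted p under 0.05 there were 1, 6, 14, 17 and 12 members, of 81 tested (82 in h3). These were 1.23%, 7.41%, 17.1%, 21% and 14.8% of the members tested, beside 4.23%, 7.45%, 10.4%, 13.2% and 5.8% of all genes. DESeq2 called 0, 0, 2, 5 and 1 members, among 17, 89, 196, 451 and 65 genes in all. In brain the members with the smallest p in each mutant, with edgeR's adjusted p, were Kcnk13 in h1 (log2 fold change -0.21, adjusted p = 0.998), Kcnk1 in h2 (-0.18, 0.255), Kcnb2 in h3 (0.24 ± 0.05, 0.0932), Kcnk1 in h4 (-0.26 ± 0.06, 0.0529) and Kcnq3 in h5 (-0.30 ± 0.07, 0.383). With the replicate number as a block, h4 brain had 2 calls, beside 1.37% of all genes called by that fit. They were Kcnq5 at 0.41 (adjusted p = 0.0112) and Kcnh7 at 0.35 (adjusted p = 0.0166). In h4 the labelled sexes were those of the same-numbered controls, so this block also takes up sex.

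In spinal cord 1 of 78 members was called in h1, against 0.289% of all genes, 3 of 79 in h2, against 2.09%, 2 of 78 in h3, against 1.01%, and 3 of 79 in h4, against 1.75%. At an unadjusted p under 0.05 there were 7, 25, 11 and 17 members in these cords (8.97%, 31.6%, 14.1% and 21.5%), beside 11.3%, 15.6%, 13.6% and 14% of all genes. DESeq2 called 1, 6, 4 and 5 members, among 139, 557, 439 and 581 genes. In h5 cord edgeR called 0 of 78, against 0.00581%, with 6 (7.69%) at an unadjusted p under 0.05, beside 8.9% of all genes, and 0 members called by DESeq2 among 91 genes. In the dissected regions of h5 it called 0 of 80 in cortex, against 0%, 0 of 80 in hippocampus, against 0.0118%, and 0 of 77 in cerebellum, against 0.012%. At an unadjusted p under 0.05 there were 9, 4 and 5 members in these regions (11.2%, 5% and 6.49%), beside 6.42%, 4.22% and 5.62% of all genes, and DESeq2 called 1, 0 and 0 members among 59, 43 and 44 genes.

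Kcnk1, the two-pore channel gene TWIK1, was called lower in the cord of h1, h2, h3 and h4. The C57BL/6J cords measured 67.9, 68.3 and 68.1 TPM. The h1 cords measured 54.1, 57.03 and 55.9 TPM, the h2 cords 57.6, 59.95, 51.7 and 55.8 TPM, the h3 cords 58.9, 55.4, 53.2 and 56.9 TPM and the h4 cords 55.4, 57.6, 54.5 and 56.6 TPM. Every mutant library thus lay below every control. The log2 fold changes were -0.21 ± 0.04 in h1 (adjusted p = 0.025, edgeR), -0.29 ± 0.04 in h2 (0.000638), -0.26 ± 0.04 in h3 (0.0144) and -0.26 ± 0.04 in h4 (0.00227).

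The 3 C57BL/6J cords stood above all other cords of the study. Cords of DBA/1J mice, wild type at Rorb, measured 58.2, 59.6 and 62.1 TPM, and those of h5 58.8, 62.6 and 58.1 TPM. All 21 cords other than the 3 C57BL/6J ones, from 51.7 to 62.6 TPM, were therefore below those 3. Kcnk1 was also lower in DBA/1J than in C57BL/6J cord (-0.19 ± 0.04), and not in h5 against DBA/1J cord (-0.02 ± 0.05, adjusted p = 0.937, edgeR). Over all 13 comparisons of a mutant with its control Kcnk1 had a negative log2 fold change in 12 and was called in 4. In brain the h4 libraries, 65.9, 63.2, 51.2 and 55.7 TPM, were all below the C57BL/6J ones, 69.7, 76.4 and 73.3 TPM. So were 13 of the 15 brains of h1 to h4, and 17 of 21 with DBA/1J and h5 included. The call was lost without C57BL/6J replicate 1 in h1 (adjusted p = 0.192) and h3 (0.105), without any of h1 replicates 1, 2 and 3 (0.154, 0.0691 and 0.093), and without C57BL/6J replicate 2 or 3 in h3 (0.0637 and 0.0515). It was also lost with a fit over all groups in h1 (0.0953) and with sex as a covariate in h3 (0.0827). In h2 and h4 it was kept in all 13 alternative analyses.

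**Figure D5:**
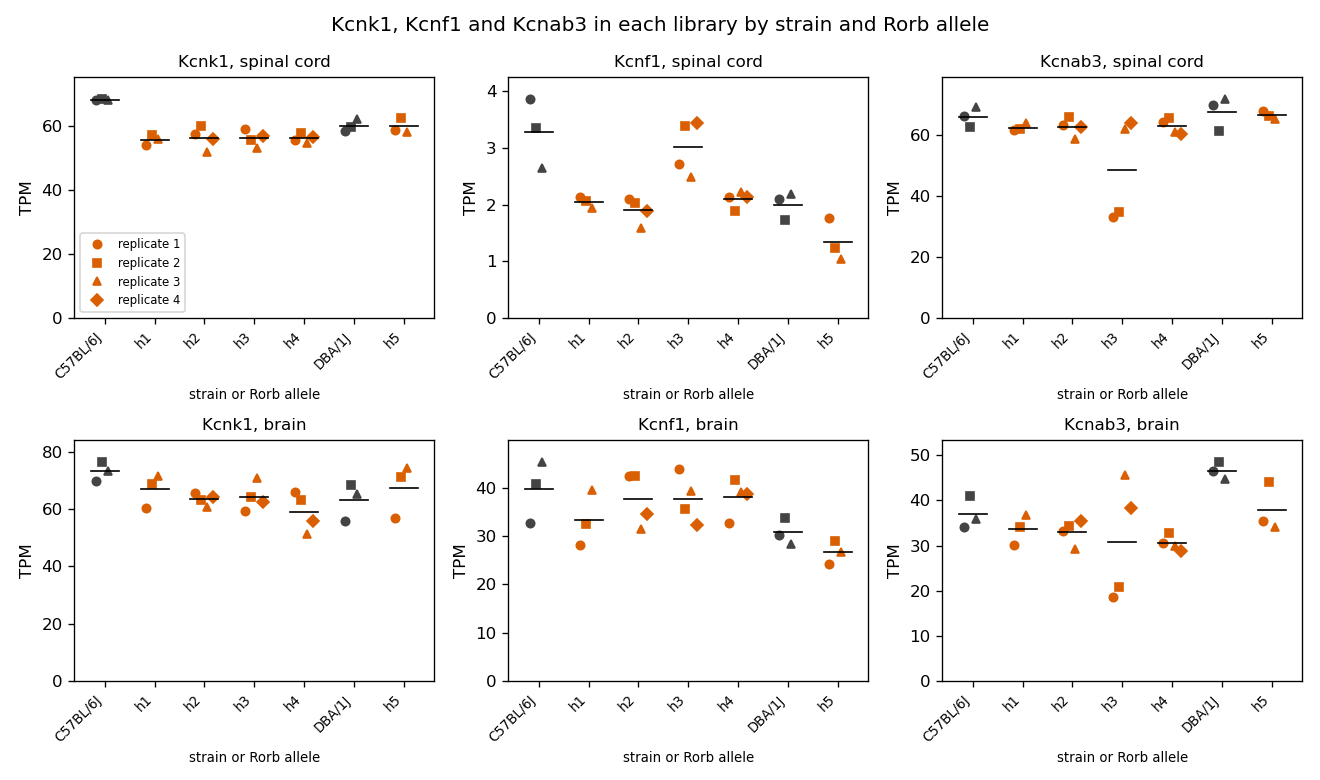
TPM (vertical axes from 0) of Kcnk1, Kcnf1 and Kcnab3 in every spinal cord (upper row) and brain library (lower row) of the 7 genotypes, with the symbol giving the replicate number and the line the group mean (n = 3 or 4 mice). In cord the 3 C57BL/6J points of Kcnk1 lie above all others, and replicates 1 and 2 of h3 are low for Kcnab3 in both tissues.

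Kcnf1, the silent subunit gene that was high in cortex, was low in cord and lower still in some mutants. It measured 3.86, 3.35 and 2.65 TPM in C57BL/6J cord, 2.10, 2.02, 1.59 and 1.88 TPM in h2 (-0.81 ± 0.12, adjusted p = 0.00212, edgeR) and 2.13, 1.89, 2.22 and 2.13 TPM in h4 (-0.63 ± 0.12, adjusted p = 0.019). The h1 cords, at 2.14, 2.07 and 1.94 TPM, also lay below every control (-0.61 ± 0.13, adjusted p = 0.0664, edgeR). With the replicate number as a block the adjusted p was 0.0173, and with sex as a covariate 0.015. In h1 the labelled sexes were those of the same-numbered controls, so this block also takes up sex. The h3 cords overlapped the controls, at 2.72, 3.39, 2.49 and 3.43 TPM. In DBA/1J mice the cords measured 2.10, 1.72 and 2.18 TPM and in h5 1.77, 1.23 and 1.03 TPM (-0.58 ± 0.20, adjusted p = 0.51). In brain Kcnf1 ran from 28.2 to 42.5 TPM in h1 and h2 and from 32.8 to 45.4 TPM in C57BL/6J. Without C57BL/6J replicate 1 the h4 call was lost (adjusted p = 0.149), as it was without C57BL/6J replicate 2 (0.0642) or h4 replicate 2 (0.0606).

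Marker sums of several cell types also lay apart from the controls in these cords. Of 18 marker lists, the sums of 6 in h1, 2 in h2, 3 in h3 and 3 in h4 lay below all C57BL/6J cords. Microglia markers were above all controls in h2 and h3, at 275.1 to 292.1 and 279.1 to 314.3 TPM against 249.2 to 262.6 TPM, with 2 of 8 called higher in h3. The 8 neuron markers summed to 5169 to 5412 TPM in C57BL/6J cord, 4712 to 4968 TPM in h1, at most 5105 TPM in h2, 4678 to 5587 TPM in h3 and 4886 to 5181 TPM in h4. By edgeR 0 of the 8 were called in h1 and h3 and 1, lower, in h2 and in h4. Endothelial markers summed to 209.5 TPM or more in C57BL/6J and to at most 199.8 TPM in h1 and 201 TPM in h4, and astrocyte markers to at most 3651 TPM in h1 against 3681 TPM or more. The list of Purkinje cell genes, some of which other neurons also express, was below all controls in h1, h2, h3 and h4. The part of these sums in the Kcnk1 and Kcnf1 values was not tested.

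The remaining calls were single. In h3 cord Kcnj10 measured 325, 342, 324 and 330 TPM against 390, 382 and 416 TPM in C57BL/6J (-0.23 ± 0.04, adjusted p = 0.0113, edgeR), with no overlap. The glial marker sums of these libraries were 3249 to 3675 TPM against 3681 to 3866 TPM for astrocytes and 16840 to 22040 TPM against 21530 to 23400 TPM for oligodendrocytes. Their part in the lower Kcnj10 was not tested. In h4 cord the sodium-activated channel gene Kcnt2 measured 4.71, 5.18, 5.06 and 5.70 TPM against 7.05, 6.27 and 6.78 TPM (-0.36 ± 0.08, adjusted p = 0.0272). Below every C57BL/6J cord lay 12 of the 15 cords of h1 to h4, and 17 of 21 with DBA/1J and h5 included. In h2 cord the Kv1 gene Kcna6 was called higher by 0.18 ± 0.04 (adjusted p = 0.0118), but its TPM overlapped, at 47.4, 44.1, 44.9 and 41.6 TPM against 38.1, 37.7 and 42.8 TPM. The Kcnj10, Kcnt2 and Kcna6 calls were each lost without C57BL/6J replicate 1 (adjusted p = 0.0868, 0.149 and 0.0718) and without at least 1 other library.

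In the cortex of h5 mice the Kv beta gene Kcnab3 measured 34.8, 37.3 and 36.1 TPM against 55.0, 62.4 and 47.5 TPM in DBA/1J, with no overlap. The log2 fold change was -0.68 ± 0.10, with an adjusted p of 0.124 by edgeR's quasi-likelihood test and 2.46e-06 by DESeq2. Without DBA/1J cortex replicate 3 edgeR called 4 members there. The share of all genes called by that fit is not given here, so this count is no result about the members. Kcnab3 also split the h3 mice by animal. Replicates 1 and 2 measured 18.7 and 20.7 TPM in brain and 32.9 and 34.6 TPM in cord, and replicates 3 and 4 measured 45.5 and 38.4 TPM in brain and 61.8 and 63.9 TPM in cord. The C57BL/6J range was 34.2 to 41.0 TPM in brain and 62.5 to 69.0 TPM in cord, so replicates 1 and 2 were low in both tissues of the same mouse. Of 458 pairs of a member and a genotype, 14 had over 1.5-fold between the highest and lowest mouse in both tissues. In some of these pairs the mice did not deviate in the same direction in brain and cord, and the share over all genes was not computed.

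Tests of whether an allele acted differently in brain and cord called 0 members by edgeR in h1, h2, h3, h4 and h5. Of all genes tested 0%, 0%, 0%, 0.0054% and 0% were called. An unadjusted p under 0.05 was reached by 2, 10, 9, 19 and 9 members (2.44%, 12.2%, 11%, 23.2% and 11.1%), beside 3.75%, 5.49%, 4.96%, 9.13% and 4.06% of all genes. DESeq2 called 0, 0, 0, 3 and 0 members, among 0, 5, 3, 83 and 2 genes. The smallest adjusted p was that of Kcnb2 in h4, 0.159, with a difference of -0.36 ± 0.08 on the log2 scale. The Kcnf1 difference was -0.77 ± 0.19 in h2 (adjusted p = 0.564) and -0.62 ± 0.17 in h4 (0.292), so a difference between brain and cord in its response was not shown.

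Rorb binds DNA at half-sites built on AGGTCA, so the promoter windows of members called in mutant cord are shown for those letters, from RefSeq on GRCm38.p6, 250 bases before to 50 bases after the start. Windows were present for 68 members, some of which had more than 1 start and so more than 1 window. Bases matching AGGTCA on either strand are in capitals.
Kcnf1, chr12:17176839-17177138, minus strand: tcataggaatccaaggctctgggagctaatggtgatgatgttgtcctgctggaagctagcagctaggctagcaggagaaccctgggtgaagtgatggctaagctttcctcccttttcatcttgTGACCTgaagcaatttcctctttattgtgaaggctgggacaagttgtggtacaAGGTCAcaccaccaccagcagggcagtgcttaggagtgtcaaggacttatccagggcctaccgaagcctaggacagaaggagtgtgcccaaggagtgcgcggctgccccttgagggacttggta
Kcnt2, chr1:140245468-140245767, plus strand: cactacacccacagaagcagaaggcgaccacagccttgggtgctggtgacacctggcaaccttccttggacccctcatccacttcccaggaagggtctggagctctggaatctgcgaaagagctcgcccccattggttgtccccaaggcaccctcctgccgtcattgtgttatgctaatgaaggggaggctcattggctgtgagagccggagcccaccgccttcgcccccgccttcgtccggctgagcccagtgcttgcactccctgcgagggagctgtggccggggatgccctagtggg
Kcnj10, chr1:172340960-172341259, plus strand: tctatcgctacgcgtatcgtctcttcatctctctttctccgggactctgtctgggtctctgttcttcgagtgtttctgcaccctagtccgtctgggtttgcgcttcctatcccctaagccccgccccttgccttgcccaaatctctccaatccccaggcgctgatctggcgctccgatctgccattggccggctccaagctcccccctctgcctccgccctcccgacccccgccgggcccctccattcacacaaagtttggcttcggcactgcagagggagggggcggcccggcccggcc
Kcna6, chr6:126740625-126740924, minus strand: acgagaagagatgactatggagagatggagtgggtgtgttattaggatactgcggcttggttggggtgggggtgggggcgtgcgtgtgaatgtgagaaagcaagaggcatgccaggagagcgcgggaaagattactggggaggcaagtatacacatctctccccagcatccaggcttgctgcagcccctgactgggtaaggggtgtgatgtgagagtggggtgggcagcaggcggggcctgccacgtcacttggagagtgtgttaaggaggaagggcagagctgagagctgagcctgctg
The Kcnf1 window holds the letters 2 times, starting 127 and 74 bases before the start, and the Kcnt2, Kcnj10 and Kcna6 windows hold none. The 300-base window listed for Kcnk1 holds none either. It is not printed because 0 GENCODE transcripts of the gene start within 50 bases of the RefSeq start. Over the windows of these 68 members, which also number 93, 6 (6.45%) held AGGTCA, those of Kcna10, Kcnf1, Kcnh1, Kcnip4, Kcnj16 and Kcnk10, against 5340 of 32851 windows (16.3%) of all genes, and the longer form TAGGTCA was in 0 of the member windows against 2.61% of all. A match is a description of the sequence and no measure of binding, and no match says only that the letters are not in this window.

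Antisense genes overlap some members, and the counting is not stated to use strand. Kcnab3os, antisense to Kcnab3, was at most 0.76 TPM in any of the 66 libraries. Kcnq1ot1, antisense to Kcnq1, had a median of 3.32 TPM, while Kcnq1 itself stayed at or below 2.02 TPM in wild-type mice. Kcnmb4os2 had a median of 3.885 TPM and reached 10.25 TPM, and Kcnd3os reached 4.26 TPM. The values of Kcnq1, Kcnmb4 and Kcnd3 are therefore uncertain.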

How the data were processed

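Messenger RNA from 66 mouse tissue samples was sequenced, and the authors trimmed reads with Trim Galore, checked them with FastQC, aligned them with STAR to GRCm38/mm10 and quantified genes with RSEM; the annotation release is not given in the sources used here. The deposited files give 1 table of expected counts per gene and library, of which 5.07% of values were not whole, and the deposited TPM values beside them, which are normalised for transcript length and library by the authors. Strand use in counting is not given in the sources used here, and fragments were not counted by molecular identifier.

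Here expected counts were rounded, filtered with filterByExpr, TMM-normalised and tested with edgeR 4.0.16 (R 4.3.3) by the quasi-likelihood test, fitted on the 2 groups of each comparison with Benjamini-Hochberg adjustment over all genes. A gene was called at an adjusted p under 0.05. Fold changes come from counts and levels from TPM. Alternatives were DESeq2 1.42.0, other size factors, no filter, sex as a covariate, a fit over all groups, the replicate number as a block and leaving out each library. The scripts were tested on simulated data.

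The members and gene lists were chosen with earlier results of these data known. Members named are the 10 with the highest mean TPM in each control group, in each comparison of tissues or strains the 10 called members of at least 1 TPM with the largest fold change and the 5 with the smallest adjusted p, and in each mutant comparison every called member or, with none, that with the smallest p; others are named to complete a subfamily. Values of some members are not reported here, and counts cover all members. Brain and cord, and the 3 dissected regions, of a replicate number came from 1 mouse in 30 of 30 sets by the animal identifiers. The main tests of these contrasts did not use this pairing, and only the replicate block did. Between strains or genotypes the number marks different mice. Same-numbered samples still deviated together (every correlation over 0.1) in h1 and h4 brain and cord and h5 hippocampus. In h1 and h4 the labelled sexes were those of the same-numbered controls, so the block there also takes up sex. In h2 and h3 they differed in part or throughout, and the brain correlations ran from -0.283 to 0.043 and from -0.493 to -0.077. In h5 hippocampus the labelled sexes also differed in part from the controls. The part of sex in these correlations was not tested.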

Additional observations from a re-analysis of the deposited data

How the results depend on the processing

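Of the 96 fold changes of members named by the rule, 0 turned in direction under any alternative. A value near 0 outside that rule did, as Kcnf1 in h3 cord, from -0.11 to 0.04 without C57BL/6J replicate 1. In the comparisons of tissues the number of members called stayed within 1.5 times in all alternatives except hippocampus against cortex, where leaving out 1 library gave 27 to 46. With DESeq2 the count was 2 in h3 brain, 5 in h4 brain, 1 in h5 brain, 6 in h2 cord, 4 in h3 cord, 5 in h4 cord, 1 in h5 cortex, and 1 and 3 for the difference between tissues in the strain effect and in h4. Without the low-count filter it was 5 in h4 brain, 2 in h1 cord, 8 in h2 cord, 5 in h4 cord, 1 in h5 cortex, and 3, 1 and 5 for the difference between tissues in the strain effect, h2 and h4. With sex as a covariate it was 2 in h1 cord and 1 in h3 cord, and with a fit over all groups 0 in h1 cord and 5 in h3 cord. Except for DESeq2, the shares of all genes called by these fits are not given here, so the counts are no result about the members. Causes of these changes were not tested.

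With the replicate block the strain comparison in brain had 5 calls in place of 9, h4 brain 2 in place of 0 and h1 cord 2 in place of 1. It gave 62, 44 and 67 calls for the 3 pairs of regions, 68 and 61 for cord against brain, 15 for the strain comparison in cord and 4, 2 and 3 in h2, h3 and h4 cord. Of all genes this block fit called 57.3%, 22.2% and 62.5% for the pairs of regions, and 55.7% and 50.8% for cord against brain. For the strain comparison it called 7.44% in brain and 17.7% in cord. In h1, h2, h3 and h4 cord it called 0.514%, 1.67%, 0.919% and 1.33%, and in h4 brain 1.37%. Leaving out 1 library gave 4 to 9 calls for the strain comparison in brain, 11 to 17 in cord, 0 to 2 in h4 brain, 0 to 2 in h1 cord, 2 to 5 in h2 cord, 0 to 2 in h3 cord, 1 to 4 in h4 cord and 0 to 4 in h5 cortex. For these refits the shares of all genes called are not given here.

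Rescaled over protein-coding genes without the mitochondrially encoded ones, the summed level in DBA/1J mice was 4366 TPM for cerebellum, 4018 for cortex, 3458 for hippocampus, 3822 for brain and 3836 for cord, and C57BL/6J mice had 3936 TPM in brain and 3929 in cord. With 3 or 4 mice per group, small changes of low members such as Kcnf1 in cord rest on few fragments and single libraries decide several calls.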
